A study of Arabidopsis thaliana with 2 samples.

Results

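The JAZ (JASMONATE-ZIM-DOMAIN) genes JAZ1 to JAZ10 of Arabidopsis thaliana were examined for nearby binding of the clock protein CCA1. These 10 genes, of 27444 nuclear protein-coding genes in the gene table, were taken by locus identifier: AT1G19180, AT1G74950, AT3G17860, AT1G48500, AT1G17380, AT1G72450, AT2G34600, AT1G30135, AT1G70700 and AT5G13220, in the order JAZ1 to JAZ10. Every CCA1 peak that touched one of them, extended by 2000 bp on both sides, was collected together with the rank of its score. The genes were selected on the presence and score rank of these CCA1 peaks, so their counts and ranks are a description and no test was made on them.

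Both chromatin immunoprecipitation sequencing (ChIP-seq) libraries came from cca1 lhy plants in the Col-0 accession carrying CCA1pro:CCA1-FLAG, a transgene in which the CCA1 promoter drives CCA1 with a FLAG tag. Whole seedlings were harvested at 14 days from plates with 2% sucrose, kept at 22 °C in 12 h of light and 12 h of darkness, and fixed 1 h into the light period. One library was sequenced on an IonPGM and 1 on an Illumina GAII, and the labels do not give the number of plants, transgenic lines or immunoprecipitations behind them. The lists held 2901 IonPGM and 2954 Illumina peaks. Read depth is unknown, there is 1 library per sequencer, and sequencer and library kit cannot be told apart, so no value below carries a replicate error. Whole seedlings pool all cell types, and no RNA was measured, so a peak shows where the tagged protein was recovered and not whether the gene beside it was on or off.

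JAZ proteins are the repressors of the jasmonate pathway, which governs wound and herbivore defence, fertility and growth restraint. Most of them recruit the adaptor NINJA, and through it TOPLESS corepressors, by their ZIM (TIFY) domain. The Jas motif of JAZ proteins holds MYC transcription factors inactive. When the hormone jasmonoyl-isoleucine accumulates, the F-box receptor COI1 binds the JAZ proteins, which are then degraded, and the MYC factors are released. CCA1 is a dawn-phased MYB-type factor of the circadian clock. The JAZ genes are themselves jasmonate-responsive, and by sequence they fall into groups of close relatives: JAZ1 with JAZ2, JAZ3 with JAZ4 and JAZ9, JAZ5 with JAZ6, JAZ7 with JAZ8, and JAZ10.

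CCA1 peaks lay near JAZ1, JAZ3, JAZ5, JAZ6 and JAZ9 in both lists, and near none of JAZ2, JAZ4, JAZ7, JAZ8 and JAZ10 in either list. An IonPGM peak was thus found at 5 of 10 JAZ genes, against 16.1% of all nuclear protein-coding genes, and an Illumina peak at the same 5 of 10, against 17.0%. At each of the 5 genes at least 1 peak of one list overlapped a peak of the other by 1 bp or more. The stretch common to both peaks is called a shared segment, and 8.89% of all genes had one within 2000 bp. The remaining 5 JAZ genes had no peak of either list, as did 76.8% of all genes. JAZ6 and JAZ9 each had 2 shared segments, which 0.568% of all genes had. Windows of neighbouring genes overlap, so 1 peak can count for several genes in these shares.

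**Figure D1:**
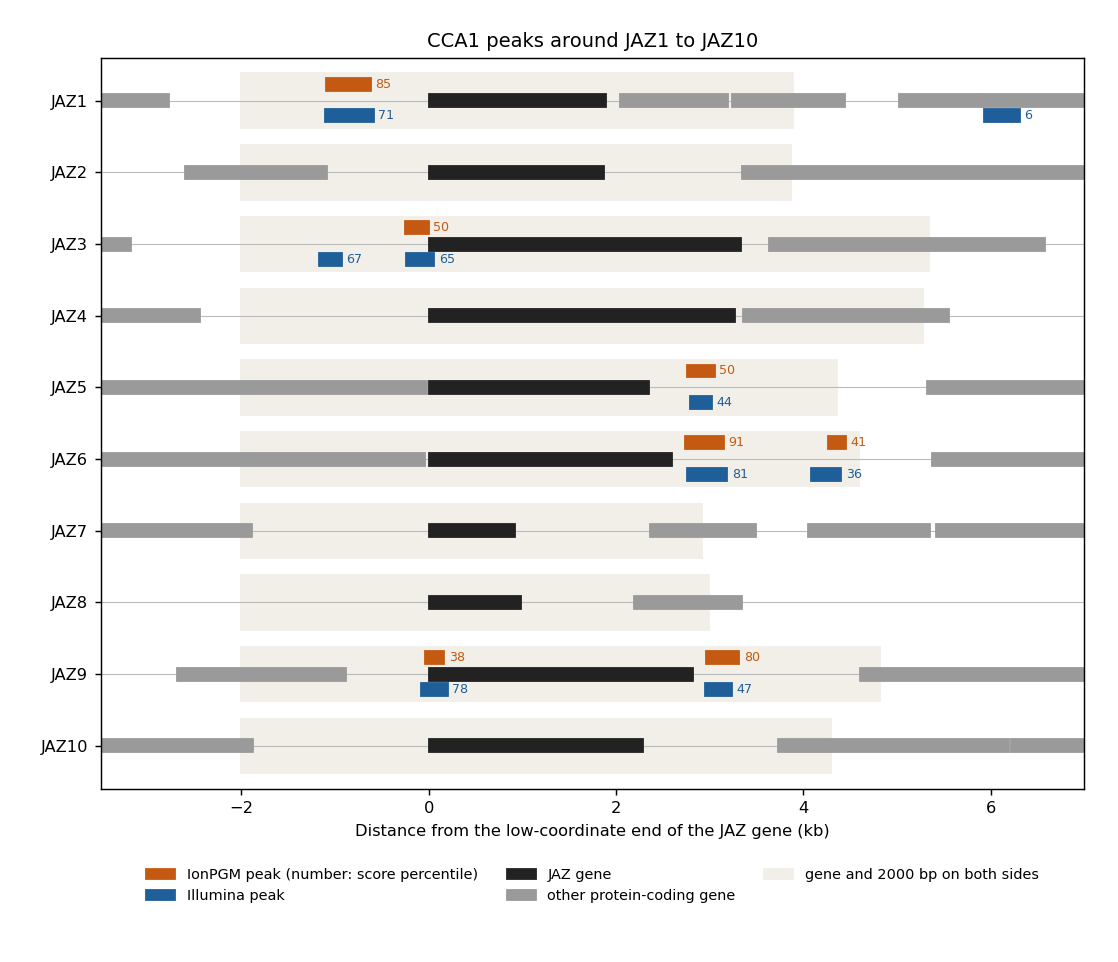
Map of the 10 JAZ loci, drawn to scale in kb from the low-coordinate end of each JAZ gene (black), with other protein-coding genes in grey, IonPGM peaks (orange) above and Illumina peaks (blue) below each line, and the score percentile printed beside each peak. Peaks of both lists coincide at JAZ1, JAZ3, JAZ5, JAZ6 and JAZ9, and the shaded windows of the other 5 genes are empty.

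In all, 15 peaks lay within 2000 bp of a JAZ gene. All 7 IonPGM peaks and 7 of the 8 Illumina peaks were shared. Over all nuclear peaks 52.2% of the IonPGM and 51.7% of the Illumina peaks were shared. Counted by gene, these same peaks gave a shared segment at 5 of the 5 JAZ genes with any peak. Among all genes, 2441 of 6368 with any peak had one (38.3%). Of these 6368 genes, 1700 had peaks of the IonPGM list alone and 1957 peaks of the Illumina list alone, and no JAZ gene was in either class.

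JAZ6 had the highest-ranked peaks of the family. JAZ6, like its close relative JAZ5, is a COI1-dependent repressor. Its main peak lay outside the gene on the high-coordinate side, 139 bp from the gene in the IonPGM list (chromosome 1: 27276701 to 27277121) and 160 bp from it in the Illumina list (27276722 to 27277153). Ranked by the authors' score within its own list, it stood 269th of 2901 IonPGM peaks and 573rd of 2954 Illumina peaks, which are percentiles of 90.8 and 80.6 on a scale where 100 is the strongest peak of a list. A weaker peak followed further out, 1671 bp (IonPGM) and 1488 bp (Illumina) from JAZ6, with percentiles of 41.0 and 35.7. This outer peak also lay within 2000 bp of AT1G72460 and was nearer to it, at 919 bp and 969 bp. The inner peak had no other protein-coding gene within 2000 bp.

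At JAZ5 the peak lay on the same side, 397 bp outside the gene in the IonPGM list (chromosome 1: 5957908 to 5958206) and 438 bp outside in the Illumina list (5957949 to 5958180). Its percentiles were 49.6 and 44.3, near the middle of each list and below those of the JAZ6 inner peak in both. No other protein-coding gene lay within 2000 bp of it. The low-coordinate side of both genes is closed off by a neighbour, UBP1B at 12 bp from JAZ5 and EDA25 at 33 bp from JAZ6, whereas the high-coordinate side is free of protein-coding genes for 2960 bp at JAZ5 and 2779 bp at JAZ6. Both genes have a lipoxygenase gene of jasmonate synthesis further along that side, LOX3 19.8 kb from JAZ5 and LOX4 32.0 kb from JAZ6. Neither lipoxygenase gene had a shared segment: LOX3 had an Illumina peak alone, at percentile 50.1, and LOX4 had no peak.

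JAZ1, one of the first JAZ proteins shown to bind COI1, had the second-highest IonPGM peak of the family and, in the Illumina list, a peak below those of JAZ6 and JAZ9, while its close relative JAZ2 had no peak. The JAZ1 peak lay 618 bp outside the low-coordinate end in the IonPGM list (chromosome 1: 6620687 to 6621159) and 587 bp outside in the Illumina list (6620668 to 6621190). Its percentiles were 85.4 and 70.8, or ranks of 425 and 863. The Illumina peak spanned the whole of the IonPGM peak, and their centres were 6 bp apart. AT1G19170 was the other protein-coding gene in reach, 1681 bp from the IonPGM and 1662 bp from the Illumina peak. JAZ2 is of nearly the same length as JAZ1, 1873 bp against 1892 bp, and has open flanks of 1089 bp and 1474 bp. The nearest peak to JAZ2 was an Illumina peak 4316 bp away at percentile 43.6. It overlapped AT1G74929 and ORA47, which encodes an AP2/ERF-type transcription factor. The nearest IonPGM peak to JAZ2 was 52.8 kb away.

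JAZ3 and JAZ9 differed from JAZ1, JAZ5 and JAZ6 in that a shared peak lay across an end of the gene itself. JAZ3 is the repressor altered in the jasmonate-insensitive mutant jai3. Its peak straddled the low-coordinate end, with an IonPGM percentile of 50.4 (chromosome 3: 6119456 to 6119708) and an Illumina percentile of 65.4 (6119470 to 6119765). JAZ3 also had the single unshared peak among those counted for JAZ1 to JAZ10. It was an Illumina peak 928 bp outside the same end (6118533 to 6118779). Its percentile of 66.6 was slightly above that of the shared Illumina peak beside it. No other protein-coding gene lay within 2000 bp of these peaks.

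JAZ9, known to bind the gibberellin-signalling DELLA protein RGA, had a shared segment at each end. The first peak lay across its low-coordinate end, at chromosome 1: 26654495 to 26654697 (IonPGM) and 26654453 to 26654734 (Illumina), and HWI1 was 852 bp and 810 bp away. The second lay outside the high-coordinate end by 135 bp in the IonPGM list (26657485 to 26657845) and by 124 bp in the Illumina list (26657474 to 26657763), with GH9B1 at 1284 bp and 1366 bp. The lists ranked these peaks in opposite order. The peak at the low-coordinate end had percentiles of 38.1 (IonPGM) and 77.9 (Illumina), and the peak at the other end had 79.5 (IonPGM) and 47.1 (Illumina). These are the widest differences between lists at any JAZ segment, 39.8 and 32.4 percentile points. The median difference was 14.6 points over the 7 JAZ segments and 17.1 points over all 1499 nuclear segments. JAZ4, the third gene of this group, had its nearest IonPGM peak at 10.4 kb and its nearest Illumina peak at 38.5 kb.

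**Figure D2:**
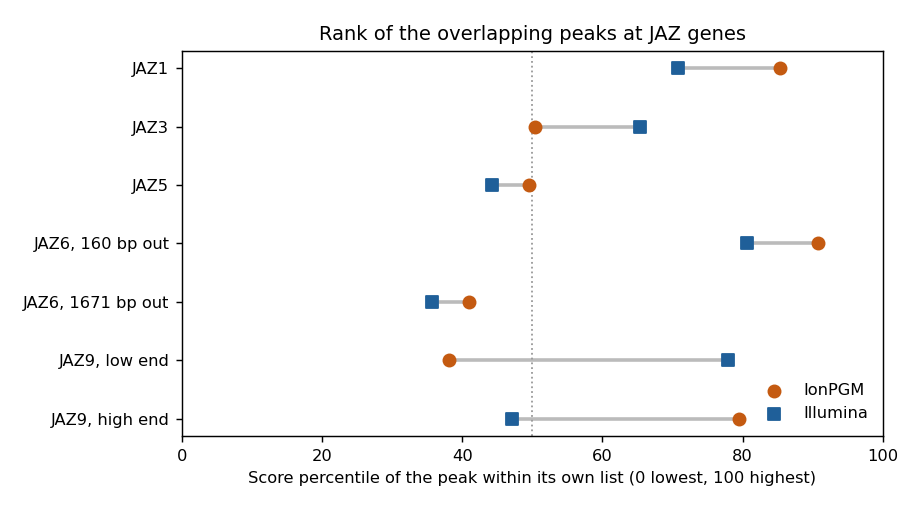
Score percentile of the overlapping IonPGM (orange circles) and Illumina (blue squares) peaks at the 7 shared segments of JAZ genes, with 1 line per segment and the middle of each list dotted. Both peaks stood above the middle at JAZ1, at JAZ3 and at the inner segment of JAZ6, though JAZ3 only narrowly in the IonPGM list (50.4). The lists ranked the ends of JAZ9 in opposite order.

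JAZ7, JAZ8 and JAZ10 had no peak in their windows. JAZ8 lacks the canonical degron that COI1 recognises and is a stable repressor, and JAZ7 is its close relative. JAZ7 and JAZ8 are the shortest of JAZ1 to JAZ10, at 923 bp and 990 bp, so their windows were the smallest of these. JAZ4, at 3273 bp, had no peak in its window either. Whether gene length bears on the missing peaks was not tested. The nearest peaks to JAZ7 lay 12.0 kb away in both lists, beside PTAC12. The nearest to JAZ8 were 51.8 kb (IonPGM) and 21.5 kb (Illumina) away. JAZ10, whose splice variants include forms resistant to degradation, had its nearest peaks at 14.9 kb (IonPGM) and 15.0 kb (Illumina), beside GILP. The widest gap among peaks counted for a JAZ gene was the 1671 bp of the outer JAZ6 peak, and the nearest peaks beyond the window were an Illumina peak 4032 bp from JAZ1, at percentile 5.70, and the one 4316 bp from JAZ2. Absence from a list does not show absence of binding, because depth and the caller's threshold are unknown.

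The order of the genes by the mean percentile of their best shared segment was JAZ6 (85.7), JAZ1 (78.1), JAZ9 (63.3), JAZ3 (57.9) and JAZ5 (46.9). The 2 lists agreed that the inner JAZ6 peak ranked first, but the Illumina list placed the low-end JAZ9 peak (77.9) above the JAZ1 peak (70.8) and the IonPGM list did not. With 1 library a sequencer, the neighbours in this order cannot be separated from the spread between libraries. The median over the 7 IonPGM peaks was 50.4 and that over the 8 Illumina peaks 66.0, where the median of all nuclear peaks was 49.7 and 49.0. The 8 include the unshared JAZ3 peak (66.6), so these medians do not compare the lists peak by peak. Within pairs, 5 of the 7 JAZ segments ranked higher in the IonPGM list, against 46.6% of all nuclear segments. The 7 segments had a median mean percentile of 58.0, against 60.4 over all nuclear segments, and 3 of 7 had both percentiles above 50, against 47.8%. By the mean over both lists the JAZ segments thus stood near the middle of all shared segments. Ranked among the shared peaks of each list alone, the shared JAZ peaks had medians of 36.2 (IonPGM) and 50.5 (Illumina). Counted by gene, JAZ1, JAZ3 and JAZ6 had a segment with both percentiles above 50, which 4.32% of all genes had. JAZ3 passed this cut narrowly, with an IonPGM percentile of 50.4.

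The peaks of both lists coincided closely at the JAZ genes, about as they did elsewhere. The median distance between the centres of overlapping peaks was 26.5 bp at JAZ genes and 35 bp over all segments, and the median overlap was 96.2% and 98.4% of the shorter peak. The outer JAZ6 peak matched least, with centres 116.5 bp apart and an overlap of 140 bp. JAZ peaks were 190 to 473 bp wide in the IonPGM list and 232 to 523 bp wide in the Illumina list.

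All 7 segments lay outside or across the end of their JAZ gene. None was wholly inside it, while 24.0% of all nuclear segments were wholly inside a protein-coding gene. On genes with a single bound side (JAZ1, JAZ3, JAZ5 and JAZ6) that side was the one with the wider gap to the next protein-coding gene. The gaps were 2771 bp against 155 bp at JAZ1 and 3178 bp against 297 bp at JAZ3. At JAZ5 and JAZ6 the wider gap was on the high-coordinate side, against 12 bp and 33 bp. JAZ peaks were 190 to 523 bp wide, and whether the width of a gap bears on the bound side was not tested. The same count over all genes was not made, so whether JAZ genes differ from other genes in this is not known. The gene table gives no strand, so whether the bound sides hold the promoter was not determined, and exon and UTR positions were not assigned. Segments at JAZ1 and at the inner JAZ6 position also overlapped long noncoding RNA genes of the table, AT1G05473 and AT1G09307. That is 2 of 7 segments, where 6.54% of all nuclear segments touched such a gene.

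**Figure D3:**
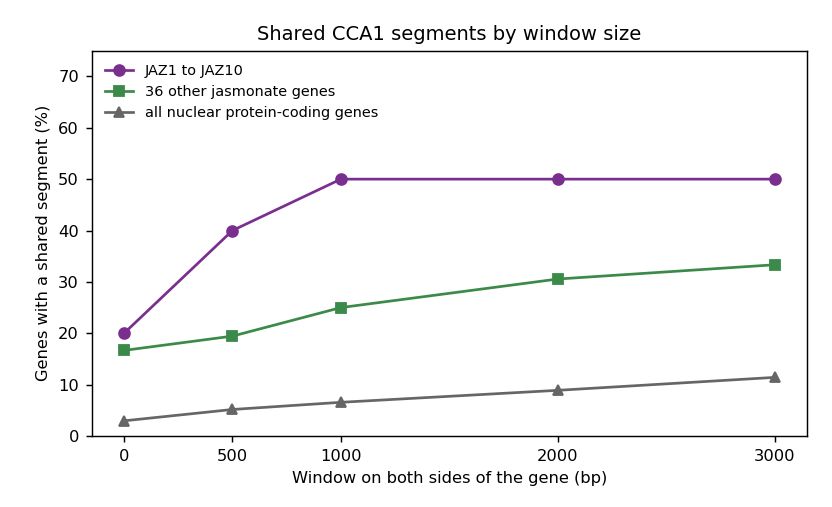
Share of genes (%) with a shared segment as the window on both sides of the gene widens from 0 to 3000 bp, for JAZ1 to JAZ10 (purple circles), 36 other jasmonate genes (green squares) and all nuclear protein-coding genes (grey triangles). The JAZ count goes from 2 of 10 with the gene alone to 5 of 10 at 1000 bp and stays there, while the share of all genes climbs from 2.96% to 11.4%.

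Window size set which JAZ genes counted. With no flank, JAZ3 and JAZ9 had a shared segment, against 2.96% of all genes. At 500 bp JAZ5 and JAZ6 joined them (5.17% of all genes), and at 1000 bp JAZ1 did (6.56%). No JAZ gene was added at 2000 or 3000 bp, where the share of all genes was 8.89% and 11.4%. The 5 genes also remained when each segment was given only to the nearest protein-coding gene, where the share of all genes was 4.92%.

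The rest of the jasmonate pathway was followed through 36 genes listed by textbook role. Of these, 11 had a shared segment within 2000 bp, against 8.89% of all genes. Another 9 had a peak of 1 list alone, 5 of them IonPGM and 4 Illumina. Among all 27444 genes these classes held 1700 and 1957. The other 16 had no peak, as did 76.8% of all genes. By role, a shared segment was found at 7 of 14 synthesis genes, 3 of 10 genes of the receptor, adaptor and transcription factors, 1 of 3 breakdown genes, 0 of 3 response genes and 0 of 6 other TIFY genes. No test was made on this list, which was compiled with earlier results of these data known.

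The other TIFY genes had no shared segment, and the difference from JAZ1 to JAZ10 was not tested. JAZ12, TIFY8 and PPD2 had an IonPGM peak alone, with percentiles of 26.5, 49.7 and 61.4. JAZ11, JAZ13 (AT3G22275) and PPD1 had no peak of either list. JAZ11 and JAZ12 are COI1-pathway repressors like the JAZ genes above, and the PPD (PEAPOD) proteins restrain leaf cell proliferation.

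Among the partners of JAZ proteins, COI1 and NINJA had no peak of either list. MYC2, the leading transcription factor held back by JAZ proteins, had shared segments, but all of them lay inside the gene, also in contact with the annotated AT1G32630, under a single IonPGM peak at percentile 78.4. The 2 Illumina peaks it overlapped stood at 43.5 and 13.0, and the overlap with the first was 2 bp (chromosome 1: 11800772 to 11800773). MYC3 had an Illumina peak alone (17.2) and MYC4 had IonPGM peaks alone (7.43 at best). JAM2, a bHLH repressor that opposes MYC2, had a segment 1036 bp outside the gene at percentiles of 79.8 and 81.0. MED25, the Mediator subunit that MYC2 contacts, had 2 segments on one side, of which the stronger stood at 75.9 and 66.0. Both were closer to the neighbouring AT1G25550, which the weaker one overlapped.

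Synthesis genes held the strongest jasmonate-related peak. DAD1, a phospholipase that frees the fatty acid precursor, had a segment 213 bp outside the gene at chromosome 2: 18477858 to 18478161, with percentiles of 98.5 and 96.95, above every JAZ peak in both lists. LOX2, a plastid lipoxygenase, had one 803 bp outside the gene (87.6 and 65.9). AOC1, an allene oxide cyclase, had one across its low-coordinate end (85.9 and 77.9), and a second segment in reach of AOC1 lay inside its tandem neighbour AOC2 (77.7 and 75.9). The segments of OPCL1 (86.3 and 54.2), which activates a precursor for beta-oxidation, of AOC4 (78.3 and 41.7) and of AOS (66.5 and 26.9), the allene oxide synthase, lay wholly inside the gene. CYP94C1, an oxidase that inactivates the hormone, had a segment 1911 bp outside (44.2 and 30.2), nearer to AT2G27700. Of the 3 response genes VSP1, VSP2 and PDF1.2, none had a peak.

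**Figure D4:**
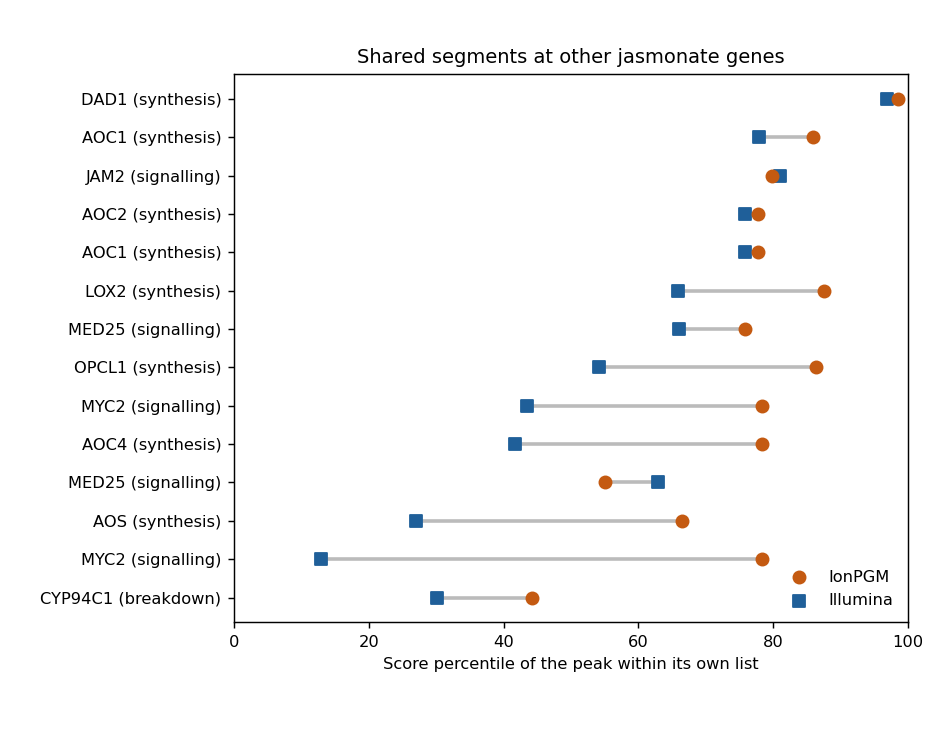
Score percentile of the overlapping IonPGM (orange circles) and Illumina (blue squares) peaks at each shared segment of other jasmonate genes, ordered by the mean of both, with the role of the gene in brackets. DAD1 stands highest at 98.5 and 96.95, and the segments of MYC2, AOS, AOC4 and OPCL1 have an Illumina percentile well below the IonPGM one.

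The genes whose best segment ranked most like that of JAZ6 were AT1G72175 (91.0 and 79.4), NAC085 (91.6 and 81.5) and AT5G14500, which shares the NAC085 segment. They were the 3 nearest of 2436 genes by distance in the percentiles of both lists, at 1.24 percentile points each.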

How the data were processed

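Bowtie 0.12.7, SAMtools 0.1.18 and MACS2 are named, with TAIR10, in the submitters' processing notes. Threshold, control and filters of the peak calling were not given in the sources used here. Each library has 1 peak list deposited by the authors, with 1 score per peak from the authors. The scale of that score is not stated, so peaks were only ranked by it, each list on its own. Positions were read as 0-based half-open and are printed 1-based.

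Gene positions came from the RefSeq table of TAIR10.1, whose nuclear sequences are those of TAIR10, and none is printed. Gene lengths and distances between peaks and genes or between genes were computed from it. All 10 JAZ loci and all 36 other jasmonate loci were matched by locus identifier, and 34 of the 36 names also stand in the table. Peaks were called per library. Sharing means an overlap of at least 1 bp, and a gene counts when a peak or segment touches it extended by 2000 bp on both sides.

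The members and lists were chosen with earlier results of these data known, so no p-value is given. Named were all members, the genes within 2000 bp of their peaks, jasmonate genes with a shared segment plus COI1, MYC2 and NINJA, and the 3 genes ranked most like the leading member. LOX3, LOX4, MYC3, MYC4, the other TIFY genes, the response genes and the neighbours beyond 2000 bp were named after their values were seen. The planned motif search was not run, since sequence was not used here. The counting code was tested on simulated data, where all 200 planted genes were found among 27444. Python 3.11.15, NumPy 2.4.6, pandas 2.3.3 and Matplotlib 3.10.9 were used.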

Additional observations from a re-analysis of the deposited data

How the results depend on the processing

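The counts of JAZ genes with an IonPGM peak, an Illumina peak or a shared segment were 5 each. Each was 2 with the gene alone (JAZ3 and JAZ9), against 6.35%, 6.31% and 2.96% of all genes. With windows of 500, 1000 and 3000 bp each was between 4 and 5. From 500 to 3000 bp the shares of all genes rose from 9.83% to 20.1%, from 10.2% to 21.4% and from 5.17% to 11.4%. With the nearest gene only each was 5, against 8.88%, 9.38% and 4.92%. Peaks above the median score of their list gave 4, 4 and 3 genes, against 8.11%, 8.45% and 4.32% of all genes. The last 3 were JAZ1, JAZ3 and JAZ6, of which JAZ3 passed narrowly with an IonPGM percentile of 50.4. Stricter overlap rules (at least 50% of the shorter peak, or 50% of both) kept the shared count at 5, against 8.69% and 7.89% of all genes. The 11 other jasmonate genes became 6 with the gene alone, 7 at 500 bp and 7 with peaks above the median. The shares of all genes there were 2.96%, 5.17% and 4.32%. Under the other settings 8 to 12 were counted, against 4.92% to 11.4% of all genes. The median percentile of JAZ peaks was 50.4 (IonPGM) and 66.0 (Illumina) over all peaks, 50.7 and 66.9 over nuclear peaks, and 36.2 and 50.5 among shared peaks. The motif alternatives were not run, because no sequence was used. No paired analysis was possible because each sequencer has 1 library. Depth is unknown, so no limit could be set on genes without a peak.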
